A study of Homo sapiens with 16 samples.

Results

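Cadherins are calcium-dependent adhesion receptors that hold cells together, and 8 of their genes were followed across 6 cell lines derived from SW480 cells, which were once grown out of a colon adenocarcinoma and have long been in culture. The genes were CDH1, CDH2, CDH3, CDH4, CDH6, CDH11, CDH13 and CDH17, taken by symbol from a table of 66023 genes. The set was selected on measured values as well as on names, since CDH11 was picked because its level moved against that of AJUBA. The levels and changes of CDH11 are therefore a description without a test. The other 7 genes were taken by name and were tested. The members and the tests were chosen with earlier results of these data known, which limits what the p-values can show.

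All lines descend from SW480. Parental cells were not modified (n = 2). The knockdown (KD) lines carried a lentiviral shRNA against Ajuba, in the coding region for shAjuba1 (n = 3) and in the non-coding region for shAjuba2 (n = 3), and shScrambled carried a shRNA of random sequence (n = 2). Ajuba OE carried a lentivirus that overexpresses Ajuba from a CMV promoter with FLAG and HA tags (n = 3), and Control carried the same construct after the Ajuba insert had been excised clonally (n = 3). The transduced lines were selected with puromycin and thus share selection, whereas Parental cells do not. The labels give the same range of passages for the lines, and the study speaks of technical replicates, so p-values measure the spread between samples of one line of each kind and not between separate transductions.

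Counts of read pairs per gene summed to between 30132396 and 69684675 per sample. Levels are given in RPM, the count per 1000000 counts of the sample, and genes were compared with each other only as RPM per kilobase of merged exons. In Control, shAjuba2 and Ajuba OE the counts of replicate 2 lay farther from replicate 1 than those of replicate 3 did, with a median chi-square over genes, relative to counting noise, of 10.8 to 13.6 against 4.39 to 5.19. Changes are log2 fold changes with their standard error (SE) from edgeR, and a gene passed the test when its Benjamini-Hochberg adjusted p over all genes was under 0.05. In these bulk samples fewer cells with a transcript cannot be told apart from less transcript per cell.

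The classical cadherins CDH1 (E-cadherin), CDH2 (N-cadherin), CDH3 (P-cadherin) and CDH4 (R-cadherin) are of type I and bind catenins through their tail, as the type II cadherins CDH6 (K-cadherin) and CDH11 (OB-cadherin) do. E-cadherin forms the adherens junctions of epithelium, and N-cadherin and OB-cadherin are best known from mesenchymal, neural or bone-forming cells. CDH13 (T-cadherin) is anchored in the membrane by a lipid and has no tail, and CDH17 (LI-cadherin) is the cadherin of liver and intestine, with a short tail that does not need catenins. AJUBA is a LIM domain protein that is found at adherens junctions and in the nucleus.

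On GRCh38, 4 of the 8 genes lie on chromosome 16. CDH3 (ENSG00000062038, chr16:68636189-68727468) and CDH1 (ENSG00000039068, chr16:68737292-68835537) are neighbours on the plus strand with 9823 bases between them. CDH11 (ENSG00000140937, chr16:64943753-65126112) lies on the minus strand of the same arm and CDH13 (ENSG00000140945, chr16:82626965-83800640) on the plus strand. CDH4 (ENSG00000179242, chr20:61252261-61940617), CDH2 (ENSG00000170558, chr18:27932879-28177946), CDH6 (ENSG00000113361, chr5:31193686-31329146) and CDH17 (ENSG00000079112, chr8:94127162-94217303) are on other chromosomes. Genes on the opposite strand cover 21.4% of the exon bases of CDH13 (CDH13-AS2, 3 to 28 counts per sample) and 8.4% of those of CDH3 (CDH3-AS1, 5 to 22 counts), and the strand setting of the counting is not given in the sources used here.

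AJUBA, the targeted gene, was measured first. In the samples of shAjuba1 it was at 49.6, 47.3 and 53.5 RPM, in shAjuba2 at 60.3, 68.6 and 57.1 RPM and in shScrambled at 83.4 and 81.6 RPM. It stood at 88.8 and 91.6 RPM in Parental, at 89.6, 100.5 and 89.4 RPM in Control, and at 549.7, 461.8 and 566.2 RPM in Ajuba OE. Both KD lines were below every other line without overlap and Ajuba OE was above all. AJUBA fell by 0.73 on the log2 scale in shAjuba1 against shScrambled (SE 0.0834, adjusted p = 2.19e-05) and rose by 2.56 in Ajuba OE against Control (SE 0.115, adjusted p = 7.69e-05), whereas the log2 fold change of -0.46 in shAjuba2 (SE 0.131) had an adjusted p of 0.0773. It passed the threshold without replicate 2 of shAjuba2 (log2 fold change -0.55, adjusted p = 4.81e-04) and against Parental (log2 fold change -0.60, adjusted p = 0.0364).

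CDH11 had the widest range of the 8 genes. It was at 162.7, 154.5 and 139.5 RPM in shAjuba1 and at 120.7, 94.5 and 111.2 RPM in shAjuba2. In shScrambled it was at 31.7 and 28.5 RPM, in Control at 38.5, 35.3 and 35.3 RPM and in Parental at 67.7 and 67.8 RPM. In Ajuba OE it was at 4.21, 3.85 and 3.62 RPM. The order from low to high was Ajuba OE, shScrambled, Control, Parental, shAjuba2 and shAjuba1, and no line overlapped its neighbour in that order.

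Against shScrambled, CDH11 was 5.01-fold higher in shAjuba1 (log2 fold change 2.32, SE 0.103) and 3.49-fold higher in shAjuba2 (log2 fold change 1.80, SE 0.143). Against Control it was 8.91-fold lower in Ajuba OE (log2 fold change -3.16, SE 0.107). The KD comparisons share the shScrambled samples. The control lines differed as well, since CDH11 was 2.26-fold lower in shScrambled than in Parental and 1.85-fold lower in Control than in Parental. Taken against Parental, the difference was 2.20-fold in shAjuba1 (log2 fold change 1.14, SE 0.0888) and 1.54-fold in shAjuba2 (log2 fold change 0.62, SE 0.133), and -4.07 on the log2 scale in Ajuba OE (SE 0.109).

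**Figure D1:**
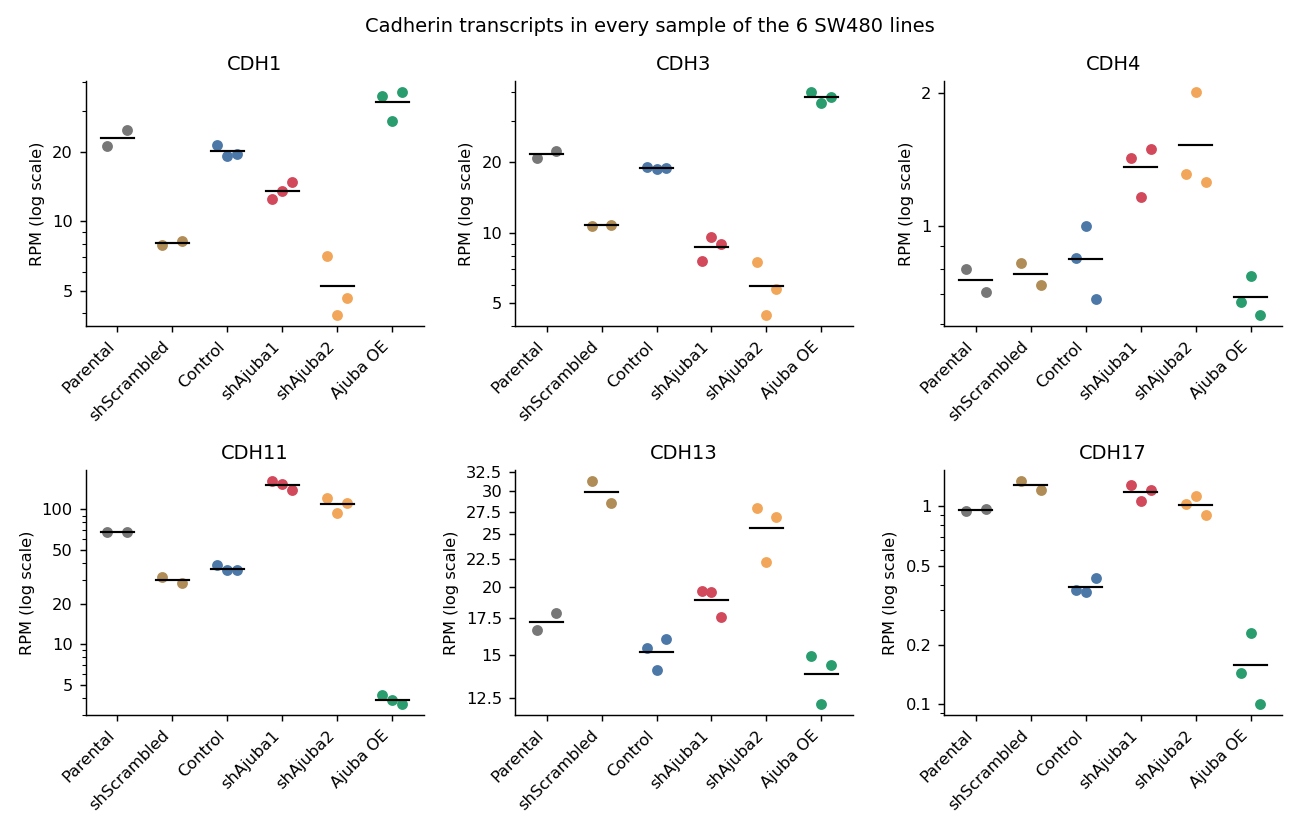
RPM on a log axis for the 6 cadherins that were detected, with a point per sample and a bar at the mean of each line (n = 2 for Parental and shScrambled, n = 3 for the others). CDH11 runs from 3.62 RPM in Ajuba OE to 162.7 RPM in shAjuba1, CDH1 and CDH3 are highest in Ajuba OE, and CDH13 is highest in shScrambled.

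Over the means of the 6 lines, log2 CDH11 and log2 AJUBA had Pearson's r = -0.96 and Spearman's rho = -0.83. Without Ajuba OE, r was -0.85 and rho -0.70 over 5 lines. CDH11 was not alone in this, since over the 6 lines rho with AJUBA was -0.83 for CDH17 and 0.89 for CDH3. It was 0.77 for CDH1 and -0.77 for CDH4 and for CDH13. These lines share their origin and their control lines, CDH11 was chosen for this relation, and the values are a description only. The order was not kept among the 3 lines without a change of AJUBA by design. Their AJUBA means lay between 82.5 and 93.2 RPM, yet CDH11 spanned 30.1 ± 2.28 (SD, n = 2) in shScrambled, 36.3 ± 1.84 (SD, n = 3) in Control and 67.7 ± 0.0283 RPM (SD, n = 2) in Parental, and shScrambled had both the lowest AJUBA and the lowest CDH11 of the 3.

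**Figure D2:**
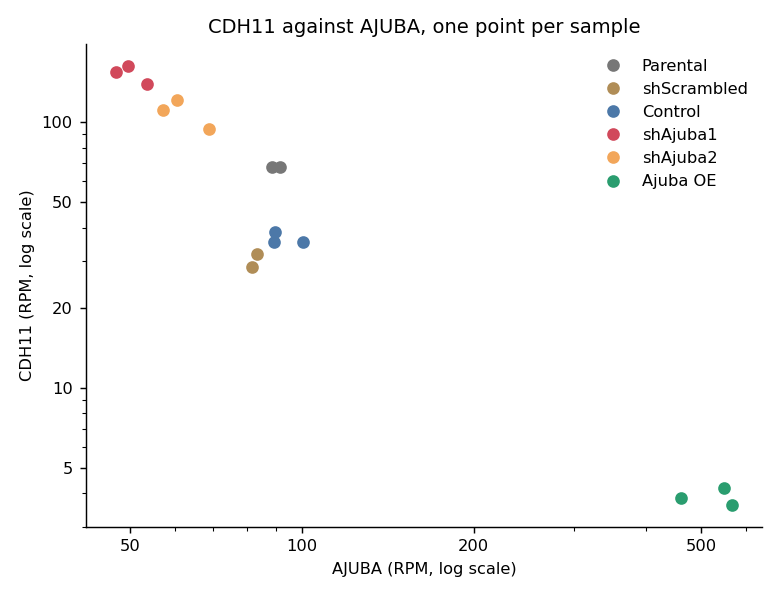
CDH11 against AJUBA in RPM, both on log axes, with a point per sample coloured by line. The KD samples sit at the upper left (AJUBA 47.3 to 68.6 RPM), the Ajuba OE samples at the lower right (CDH11 3.62 to 4.21 RPM), and the samples of Parental, Control and shScrambled lie above each other at similar AJUBA.

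Fibroblast markers were read beside CDH11 because this cadherin is known from mesenchymal cells. The summed level of 6 such genes (COL1A1, COL1A2, COL3A1, DCN, LUM and PDGFRB) was 6.21 to 10.4 RPM in Ajuba OE, 15.6 to 24.6 in Control, 22.4 to 22.8 in shScrambled, 18.9 to 19.7 in Parental, 18.1 to 22.6 in shAjuba1 and 25.0 to 37.6 in shAjuba2. COL1A1 alone was over 1 RPM in every sample, and DCN had 0 or 1 count in any sample. PDGFRB was at 0.44 ± 0.0546 RPM in Ajuba OE, 4.34 ± 0.657 in Control and 9.68 ± 1.41 in shAjuba2 (SD, n = 3 each). In shAjuba1, where CDH11 was highest, PDGFRB was at 6.04 ± 0.468 RPM (SD, n = 3). It was at 7.13 ± 0.81 RPM in shScrambled and 6.84 ± 0.54 RPM in Parental (SD, n = 2 each). Of 8 markers of colon epithelium, 6 were over 1 RPM in every sample, among them KRT8, KRT18 and EPCAM, whereas KRT20 and LGALS4 stayed below 1 RPM. Of the endothelial markers VWF was over 1 RPM in every sample, at 1.89 to 5.29 RPM, and CDH5 had at most 1 count. None of the 4 blood markers was over 1 RPM in every sample, and PTPRC had at most 3 counts. The summed epithelial markers ranged from 2897 RPM in a shAjuba2 sample to 6974 RPM in an Ajuba OE sample. The part of these genes in the cadherin values was not tested.

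CDH1, the cadherin of epithelial adherens junctions, was at 35.0, 27.2 and 36.2 RPM in Ajuba OE and at 21.5, 19.2 and 19.6 RPM in Control. In Parental it was at 21.2 and 24.7 RPM. It was at 12.4, 13.5 and 14.8 RPM in shAjuba1, at 7.07, 3.92 and 4.65 RPM in shAjuba2 and at 7.87 and 8.23 RPM in shScrambled. Only Parental and Control overlapped among neighbours in this order. CDH1 rose in Ajuba OE against Control (log2 fold change 0.77, SE 0.125, adjusted p = 0.0132) and was higher in 3 of 3 samples. This call was lost without replicate 3 of Control (adjusted p = 0.0897), replicate 1 of Ajuba OE (adjusted p = 0.0598) or replicate 3 of Ajuba OE (adjusted p = 0.0717), with log2 fold changes of 0.70 to 0.88 over the samples left out in turn. It was also lost against Parental (log2 fold change 0.56, adjusted p = 0.0804).

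In the KD lines the direction of CDH1 depended on the control. In shAjuba1 CDH1 rose against shScrambled (log2 fold change 0.73, SE 0.113, adjusted p = 2.53e-04) and fell against Parental (log2 fold change -0.79, SE 0.11, adjusted p = 2.18e-04). The 2 control lines themselves differed, with CDH1 lower in shScrambled than in Parental by a log2 fold change of -1.52 (SE 0.109, adjusted p = 2.56e-10). In shAjuba2 the log2 fold change of CDH1 was -0.68 against shScrambled (SE 0.236, adjusted p = 0.121) and -2.21 against Parental (SE 0.232, adjusted p = 0.00646). The call against shScrambled was gained without replicate 2 of shAjuba2 (log2 fold change -0.52, adjusted p = 0.0397). Between the KD lines CDH1 was 2.69-fold higher in shAjuba1 (log2 fold change 1.43, SE 0.201, adjusted p = 0.00124), a difference that does not use shScrambled or Parental.

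CDH3, the placental cadherin, was at 39.8, 35.8 and 38.1 RPM in Ajuba OE and at 19.1, 18.7 and 19.0 RPM in Control. It was at 20.9 and 22.3 RPM in Parental and at 10.7 and 10.8 RPM in shScrambled. In shAjuba1 it was at 7.6, 9.59 and 8.94 RPM and in shAjuba2 at 7.55, 4.46 and 5.78 RPM. No line overlapped its neighbour, and both KD lines lay below all control samples. CDH3 rose in Ajuba OE against Control by a log2 fold change of 1.07 (SE 0.0866, adjusted p = 7.14e-04), and it stayed past the threshold under all 15 alternatives run, Parental as the control included (log2 fold change 0.86, adjusted p = 0.00329).

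In the KD lines CDH3 fell against shScrambled, with a log2 fold change of -0.33 in shAjuba1 (SE 0.12, adjusted p = 0.0473) and -0.91 in shAjuba2 (SE 0.206, adjusted p = 0.0398). Both calls sat near the threshold. In shAjuba1 the call was lost without either shScrambled sample (adjusted p = 0.203 without replicate 1 and 0.186 without replicate 2) and without replicate 1 of shAjuba1 (log2 fold change -0.23, adjusted p = 0.231). It was also lost with library size alone (adjusted p = 0.0597), the size factors of DESeq2 (0.053), DESeq2 (0.115), all 16 samples (0.167) and every gene (0.0632), so that 5 of 13 alternatives kept it. In shAjuba2 the call was lost with library size alone and without replicate 1 (adjusted p = 0.0506) or replicate 3 of shAjuba2 (adjusted p = 0.072). It was also lost without either shScrambled sample, a fit that leaves 1 control sample, so that 8 of 13 alternatives kept it. Against Parental the log2 fold changes were -1.35 in shAjuba1 (SE 0.115, adjusted p = 6.96e-06) and -1.93 in shAjuba2 (SE 0.203, adjusted p = 0.00646).

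CDH1 and CDH3 stand side by side in the genome and had similar levels, so the ratio of their counts was taken in each sample. It was 1.41 to 1.66 in shAjuba1, 0.736 to 0.761 in shScrambled, 0.804 to 0.937 in shAjuba2, 0.758 to 0.951 in Ajuba OE, 1.01 to 1.11 in Parental and 1.03 to 1.13 in Control. The 3 shAjuba1 samples were above the other 13 samples. The ratio thus set shAjuba1 apart from shAjuba2, in which CDH1 and CDH3 were both at their lowest.

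CDH4, the retinal cadherin, was low in every line. It was at 1.42, 1.16 and 1.49 RPM in shAjuba1, at 1.31, 2.01 and 1.26 RPM in shAjuba2 and at 0.823 and 0.735 RPM in shScrambled. The samples of Parental were at 0.798 and 0.709 RPM, those of Control at 0.845, 1.00 and 0.683 RPM and those of Ajuba OE at 0.675, 0.771 and 0.629 RPM. All 6 KD samples were above the other 10. CDH4 rose in shAjuba1 against shScrambled (log2 fold change 0.81, SE 0.218, adjusted p = 0.0111) and against Parental (log2 fold change 0.84, adjusted p = 0.00929). The first call was lost without replicate 2 of shScrambled (log2 fold change 0.71, adjusted p = 0.105) and with DESeq2 (adjusted p = 0.0833). In shAjuba2 the log2 fold change was 0.92 (SE 0.299, adjusted p = 0.103), and in Ajuba OE it was -0.22 (SE 0.23, adjusted p = 0.678).

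CDH4 was the member past the low-count filter that had promoter windows in the RefSeq table used here, and the stretch before one of its starts is shown because repressors of CDH1 of the SNAI, ZEB and TCF3 kind recognise the E-box motif CAGGTG on either strand. The window holds 250 bases upstream of a start inside the gene, at chr20:61499171-61499420 on the plus strand of GRCh38.p14, with the E-box in capitals.
CDH4: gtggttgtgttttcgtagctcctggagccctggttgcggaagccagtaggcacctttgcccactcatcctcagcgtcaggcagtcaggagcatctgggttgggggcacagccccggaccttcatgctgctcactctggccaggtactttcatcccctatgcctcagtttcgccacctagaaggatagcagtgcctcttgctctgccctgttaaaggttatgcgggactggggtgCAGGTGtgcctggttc
These letters were found on either strand in 17.5% of the 35116 RefSeq windows of this length. They were not found in the second CDH4 window or in the 2 windows of CDH2. CDH1, CDH3, CDH6, CDH11, CDH13 and CDH17 are named only.

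CDH2, the cadherin whose gain marks many mesenchymal-like tumor cells, was at the limit of detection. It had 0 counts in all 3 shAjuba1 samples and 0 to 3 counts in any other sample. CDH6 had 0 counts in all samples of Parental, shScrambled and Control, 1, 0 and 2 counts in shAjuba1, 0, 2 and 0 counts in shAjuba2 and 1, 1 and 0 counts in Ajuba OE. A count of 0 allows up to 3 counts, which is 0.056 to 0.0874 RPM in the control samples. Neither gene passed the filter, and a difference between lines was not detectable at this depth. Intervals and floors cover counting error only.

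CDH13, the cadherin without a tail, was at 31.3 and 28.5 RPM in shScrambled. It was at 28.0, 22.2 and 26.9 RPM in shAjuba2 and at 19.7, 19.6 and 17.6 RPM in shAjuba1. In Parental it was at 16.6 and 17.9 RPM, in Control at 15.5, 14.1 and 16.01 RPM and in Ajuba OE at 14.9, 12.2 and 14.4 RPM. Parental overlapped with shAjuba1, and Control overlapped with Ajuba OE. CDH13 fell in shAjuba1 against shScrambled (log2 fold change -0.67, SE 0.1, adjusted p = 1.96e-04), whereas against Parental the log2 fold change was 0.10 (SE 0.103, adjusted p = 0.452). It was higher in shScrambled than in Parental (log2 fold change 0.78, SE 0.0923, adjusted p = 6.32e-07). The log2 fold changes of -0.27 in shAjuba2 (adjusted p = 0.252) and -0.07 in Ajuba OE (adjusted p = 0.791) did not pass the threshold.

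CDH17, the intestinal cadherin, was at 0.144, 0.229 and 0.101 RPM in Ajuba OE, which is 10, 11 and 4 counts. It was at 0.379, 0.367 and 0.433 RPM in Control and at 0.948 and 0.97 RPM in Parental. The samples of shScrambled were at 1.34 and 1.21 RPM, those of shAjuba1 at 1.28, 1.06 and 1.21 RPM and those of shAjuba2 at 1.03, 1.13 and 0.906 RPM. Ajuba OE lay below Control and Control below all other lines without overlap. The log2 fold change in Ajuba OE was -1.23 against Control (SE 0.349, adjusted p = 0.0999) and -2.53 against Parental (SE 0.354, adjusted p = 0.006). The log2 fold change between Control and Parental, -1.27 (SE 0.234), had an adjusted p of 0.0828. In shAjuba1 and shAjuba2 it was -0.10 and -0.37 against shScrambled (adjusted p = 0.712 and 0.335).

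Of the 7 members tested, 5 passed the filter in each comparison, and the counts are set beside the share of all genes tested. In shAjuba1 against shScrambled 4 of 5 passed the threshold, of which CDH1 and CDH4 rose and CDH3 and CDH13 fell, where 38.4% of all genes did (18.2% rose and 20.2% fell). For shAjuba2 with the same control it was 1 of 5, CDH3, where 7.63% of all genes did (3.19% rose and 4.44% fell). For Ajuba OE with Control it was 2 of 5, CDH1 and CDH3, which both rose, where 5.43% of all genes did (2.39% rose and 3.03% fell). Between shAjuba1 and shAjuba2 1 of 5 did, CDH1, where 19.6% did. Between shScrambled and Parental 3 of 5 did, with CDH1 and CDH3 lower and CDH13 higher, where 30.7% did. Between Control and Parental edgeR called 0 of 5, where 0.37% of all genes were called, 1 of the 5 (CDH17) had an unadjusted p under 0.05, and DESeq2 called 0.

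**Figure D3:**
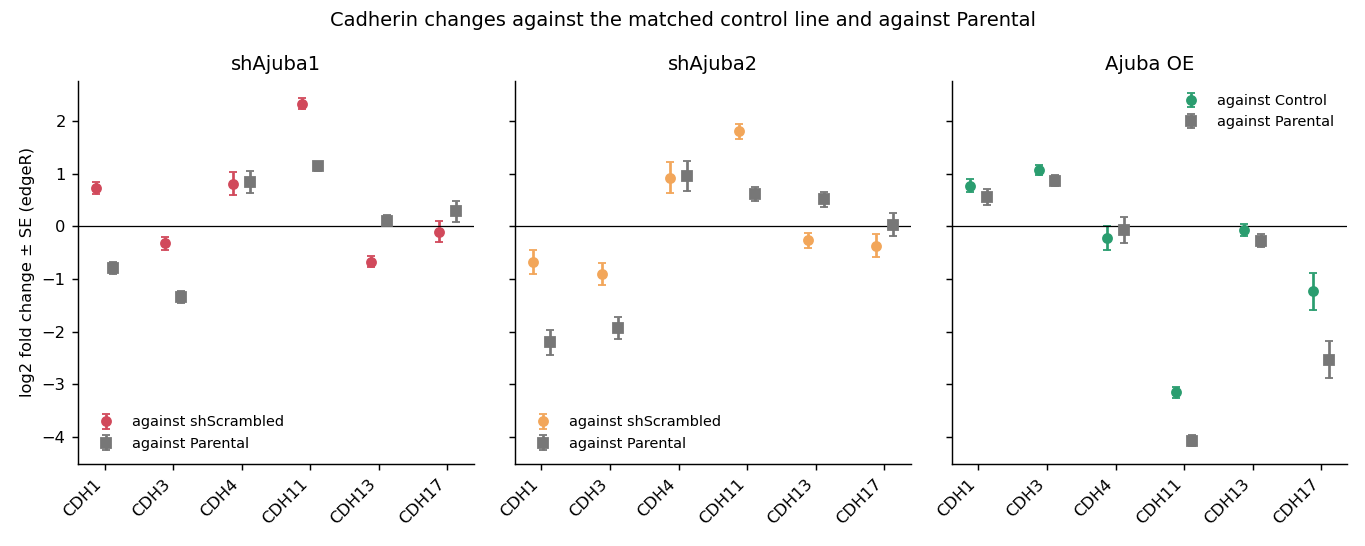
Log2 fold change ± SE from edgeR for the 6 detected cadherins in shAjuba1, shAjuba2 and Ajuba OE, against the matched control line (circles) and against Parental (squares). CDH1 in shAjuba1 is at 0.73 against shScrambled and at -0.79 against Parental, whereas CDH3 is below 0 in both KD lines and above 0 in Ajuba OE with either control.

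Among the 8 genes, CDH11 had the highest level per length in the KD lines and also in Parental. Its level was 11.5 ± 0.882 RPM per kilobase (SD, n = 3) in shAjuba1 and 8.2 ± 1.0 in shAjuba2, against 2.24 ± 0.197 and 0.858 ± 0.272 for CDH1. In Parental CDH11 was at 5.1 ± 0.00283 RPM per kilobase, against 3.78 ± 0.409 for CDH1 and 3.38 ± 0.151 for CDH3 (SD, n = 2). In Ajuba OE CDH11 was at 0.293 ± 0.0221, against 5.4 ± 0.806 for CDH1 and 5.93 ± 0.313 for CDH3. As a share of the summed RPM per kilobase of all 8 genes, CDH11 made up 66.3% in shAjuba1, 64.2% in shAjuba2, 36.0% in Parental, 26.9% in shScrambled, 25.8% in Control and 2.27% in Ajuba OE. CDH1 and CDH3 together led in Ajuba OE, with 41.3% and 45.7%. In shScrambled CDH13 held the highest share, 32.2%. The summed level moved less, from 8.43 ± 0.326 RPM per kilobase in shScrambled (SD, n = 2) to 17.3 ± 0.71 in shAjuba1 (SD, n = 3). Since shares add up to a whole, a rise of CDH11 lowers the others.

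**Figure D4:**
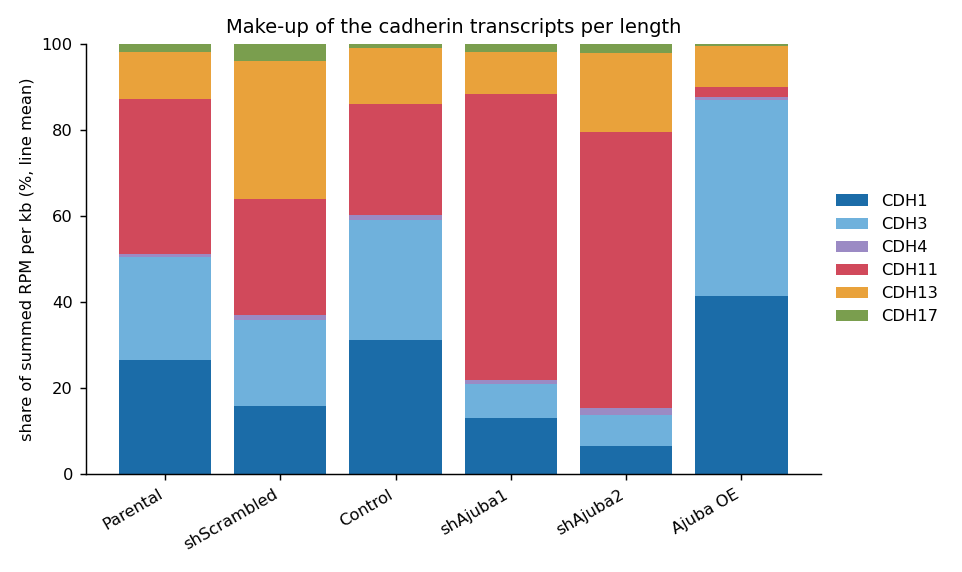
Share of the summed RPM per kilobase of the cadherins in each line, in percent, as means over the samples of the line (bars start at 0 and stack to 100). CDH11 takes 66.3% in shAjuba1 and 2.27% in Ajuba OE, where CDH1 and CDH3 take most of the rest.

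The genes around these cadherins were read from lists chosen with earlier results of these data known, and each list is given by its count and its median beside the median of all genes tested, which lay between -0.015 and -0.005 in the 3 comparisons with the matched control. The counts are read against the share of all genes called, which was 5.43% with Ajuba OE, 38.4% with shAjuba1 and 7.63% with shAjuba2. Of the other members of the AJUBA family, LIMD1 did not pass the threshold in any of the 3 (log2 fold changes 0.18, 0.24 and 0.11). WTIP rose in shAjuba1 (log2 fold change 0.91, adjusted p = 3.64e-04) and fell in Ajuba OE (log2 fold change -0.71, adjusted p = 0.0475). In shAjuba2 WTIP had a log2 fold change of 0.55 (adjusted p = 0.0582). Of AJUBA, LIMD1 and WTIP, edgeR called 0 in shAjuba2, with 2 at an unadjusted p under 0.05, and DESeq2 called 2. The call of WTIP in Ajuba OE was lost without any sample but replicate 1 of Control (adjusted p = 0.0805 to 0.201).

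Desmosomal cadherins tie cells together at desmosomes, which anchor keratin filaments. In shAjuba1 edgeR called all 3 that passed the filter (DSG2, DSC2 and DSC3, each lower, median log2 fold change -1.13) and DESeq2 called 2. DSG2, the desmoglein of simple epithelium, went from 52.0 ± 2.76 RPM in shScrambled (SD, n = 2) to 23.9 ± 1.65 in shAjuba1 (SD, n = 3), a log2 fold change of -1.13 (SE 0.0951, adjusted p = 1.72e-06), and -1.13 against Parental too. In shAjuba2 2 of 4 fell (DSC2 and DSC3, median -1.05), and in Ajuba OE 1 of 4 rose (DSC2, median 0.49). From this list DESeq2 called 3 in shAjuba2 and 2 in Ajuba OE. DSC2 had log2 fold changes of -1.39 in shAjuba1 (adjusted p = 2.57e-05), -1.48 in shAjuba2 (adjusted p = 0.00573) and 1.00 in Ajuba OE (adjusted p = 0.0479). The call of DSC2 in shAjuba2 was lost without replicate 1 or 2 of shScrambled (adjusted p = 0.0511 and 0.085). In Ajuba OE it was lost without any sample but replicate 1 of Control (adjusted p = 0.0549 to 0.21). The call of DSC3 in shAjuba1 was near the threshold (adjusted p = 0.0475) and was lost with DESeq2 (adjusted p = 0.304), library size alone, all 16 samples, every gene, the replicate block and without 4 of the 5 samples in turn, and the log2 fold change against Parental was 0.19 (adjusted p = 0.745). In shAjuba2 that of DSC3 was lost without either shScrambled sample (adjusted p = 0.12 and 0.169), without replicate 1 of shAjuba2 (adjusted p = 0.053) and against Parental (adjusted p = 0.111).

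Of the direct and indirect partners of cadherin tails, 3 of 11 rose and 5 fell in shAjuba1 (median 0.09), where 38.4% of all genes were called. In shAjuba2 1 of 11 rose (median -0.21), where 7.63% of all genes were called. For Ajuba OE edgeR called 0 of 10 (median -0.0015, with 1 at an unadjusted p under 0.05 and 0 by DESeq2). JUP (plakoglobin), which serves adherens junctions and desmosomes, fell in shAjuba1 from 109.1 ± 4.03 RPM in shScrambled (SD, n = 2) to 47.3 ± 7.12 (SD, n = 3), with a log2 fold change of -1.22 (SE 0.105, adjusted p = 2.11e-06). The alpha-catenin CTNNA1 and the delta-catenin CTNND1 fell in shAjuba1 by less, with log2 fold changes of -0.34 each (adjusted p = 0.00561 and 0.00424), and without replicate 1 of shScrambled these calls were lost (adjusted p = 0.079 and 0.0768). ARVCF, a relative of CTNND1, rose there (log2 fold change 0.48, adjusted p = 0.0125), a call that was also lost without that sample (adjusted p = 0.158). CTNNA2, the neural alpha-catenin, rose in shAjuba2 from 10 and 11 counts in the shScrambled samples to 36 to 48 counts (log2 fold change 1.82, adjusted p = 0.0158), and its log2 fold change against Parental, with 20 and 26 counts, was 0.81 (adjusted p = 0.0796).

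Of 20 other cadherins, 10, 9 and 7 passed the filter in the 3 comparisons. In shAjuba1 1 of 10 rose and 2 fell (median 0.06), a share below the 38.4% of all genes, in shAjuba2 2 of 9 fell (median -0.29), and in Ajuba OE edgeR called 0 of 7 (median -0.35, with 0 at an unadjusted p under 0.05 and 0 by DESeq2). CDH23, a cadherin of the tip links of hair cells, was at 16 ± 2.15 RPM in shAjuba1 (SD, n = 3) and between 3.41 and 4.34 RPM on average in the other lines, with a log2 fold change of 2.21 against shScrambled (SE 0.145, adjusted p = 2.27e-07) and 0.29 in shAjuba2 (adjusted p = 0.334). CDHR2, a protocadherin of the intestinal brush border, fell in shAjuba1 (log2 fold change -1.52, adjusted p = 1.14e-05) and in shAjuba2 (log2 fold change -1.49, adjusted p = 0.0131), both against a shScrambled level of 10.6 ± 2.23 RPM (SD, n = 2) that was above Parental at 5.31 ± 0.219 RPM (SD, n = 2). Against Parental the log2 fold changes of CDHR2 were -0.52 (adjusted p = 0.0186) and -0.50 (adjusted p = 0.173). CDH12 was called lower in both, on 14 to 23 counts in shScrambled, 3 to 5 in shAjuba1 and 0 to 2 in shAjuba2. Both calls were lost without replicate 1 of shScrambled (adjusted p = 0.14 and 0.15). Parental had 9 and 13 counts and Control 0 to 1. CDHR2, CDH12 and CTNNA2 are among the 8 list genes called in shAjuba2, of which edgeR still called 1 without replicate 1 of shAjuba2.

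Of the repressors of CDH1, 2 of 6 rose and 2 fell in shAjuba1 (median -0.12), 2 of 6 rose in shAjuba2 (median 0.24), and 1 of 5 fell in Ajuba OE (median 0.07). ZEB1, a zinc finger repressor of CDH1, was the member called in all 3. Its level was 29.9 ± 1.32 RPM in shAjuba1, 34.1 ± 1.95 RPM for shAjuba2 samples and 11.2 ± 0.732 RPM for those of Ajuba OE (SD, n = 3 each), against 19.9 ± 1.97 in shScrambled (SD, n = 2) and 17.1 ± 1.28 in Control (SD, n = 3). It changed by 0.57, 0.73 and -0.54 on the log2 scale in these lines (adjusted p = 6.98e-04, 0.021 and 0.0255), and it passed the threshold in the same directions against Parental, with 0.55, 0.71 and -0.79 (adjusted p = 7.83e-04, 0.0235 and 0.00552). The call in shAjuba2 was lost without replicate 1 or 2 of shScrambled (adjusted p = 0.281 and 0.172) or replicate 1 of shAjuba2 (adjusted p = 0.0712), and that in Ajuba OE without any single sample of Control or Ajuba OE (adjusted p = 0.0581 to 0.128). TCF3, which encodes the E2A proteins, rose in both KD lines (log2 fold changes 0.43 and 0.73, adjusted p = 0.00409 and 0.0139). Without replicate 1 of shScrambled the log2 fold change of TCF3 in shAjuba1 was 0.42. That fit leaves 1 control sample and cannot decide whether the call holds. Against Parental TCF3 did not pass in either (log2 fold changes 0.10 and 0.39, adjusted p = 0.463 and 0.0768). The 2 genes called lower in shAjuba1, TCF4 and TWIST2, were under 1 RPM. The call of TCF4 was lost without replicate 1 of shScrambled (adjusted p = 0.0626), and that of TWIST2 with DESeq2 (adjusted p = 0.234), the replicate block (adjusted p = 0.104), without 4 of the 5 samples in turn and against Parental (log2 fold change -0.19, adjusted p = 0.704).

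Of the activators of epithelial and intestinal cadherins, 1 of 4 rose and 2 fell in shAjuba1 (median -0.38), 1 of 4 fell in shAjuba2 (median -0.31), and 1 of 4 rose in Ajuba OE (median -0.18). GRHL2, a grainyhead factor that supports CDH1, was called lower in shAjuba1 on 8 to 11 counts per sample (log2 fold change -1.04, adjusted p = 0.0318). This call was lost with DESeq2 (adjusted p = 0.219), all 16 samples, the replicate block, without either shScrambled sample (adjusted p = 0.191 and 0.0993) and without replicate 1 of shAjuba1 (adjusted p = 0.0931). KLF4, a factor of differentiated gut epithelium, rose in shAjuba1 (log2 fold change 0.48, adjusted p = 0.00302). HNF4A, a nuclear receptor of liver and gut epithelium, fell in both KD lines (log2 fold changes -0.54 and -0.49, adjusted p = 0.00112 and 0.0409), but against Parental it did not pass (log2 fold changes -0.17 and -0.12, adjusted p = 0.227 and 0.477). Its call in shAjuba2 was lost without any single sample but replicate 2 of shAjuba2 (adjusted p = 0.0768 to 0.372). CDX2, the caudal homeobox factor of intestine, rose in Ajuba OE from 16.3 ± 1.31 to 24.3 ± 2.32 RPM (SD, n = 3 each, log2 fold change 0.64, adjusted p = 0.0165). CDH17 was at its lowest there, on 4 to 11 counts, and its change against Control did not pass in edgeR (adjusted p = 0.0999). A link between CDX2 and CDH17 was not tested. Without replicate 1 or 3 of Control or replicate 1 of Ajuba OE the call of CDX2 was lost (adjusted p = 0.0559 to 0.0752), as it was against Parental (log2 fold change 0.48, adjusted p = 0.0631).

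Of 8 genes of cadherin processing and turnover, 1 rose and 2 fell in shAjuba1 (median -0.05), near the 38.4% of all genes called there, and edgeR called 0 of 8 in shAjuba2 (median -0.11, with 2 at an unadjusted p under 0.05 and 0 by DESeq2) and 0 of 8 in Ajuba OE (median 0.0095, with 2 at an unadjusted p under 0.05 and 1 by DESeq2). ADAM10, the protease that sheds E-cadherin, fell in shAjuba1 from 118.1 ± 10.4 RPM in shScrambled (SD, n = 2) to 84.1 ± 8.68 (SD, n = 3), a log2 fold change of -0.50 (adjusted p = 0.00189) that was lost without replicate 1 of shScrambled (adjusted p = 0.0636). HACE1, a ubiquitin ligase, fell there too (log2 fold change -0.65, adjusted p = 9.12e-04), and CBLL1 (Hakai), the ubiquitin ligase of E-cadherin, was called higher (log2 fold change 0.26, adjusted p = 0.0394). The call of CBLL1 was lost with all 16 samples, without replicate 2 of shScrambled (log2 fold change 0.15, adjusted p = 0.387), without replicate 1 or 2 of shAjuba1 (adjusted p = 0.141 and 0.0778) and against Parental (log2 fold change -0.047, adjusted p = 0.669). Over all the lists, 12 of the 26 genes called in shAjuba1 were still called without replicate 1 of shScrambled, and 16 of 26 against Parental. Leaving out either shScrambled sample leaves 1 control sample in both KD comparisons. Such fits cannot decide whether the 26 calls in shAjuba1 or the 8 in shAjuba2 hold. Single calls given above as lost without a shScrambled sample carry the same limit. In shAjuba2 edgeR still called 1 of 8 without replicate 1 of shAjuba2, 8 of 8 without replicate 2 and 2 of 8 against Parental. In Ajuba OE 5 of 5 were still called without replicate 2 of both lines. Leaving out single samples of Control or Ajuba OE kept 1 to 3 of these 5, and 3 were kept against Parental.

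**Figure D5:**
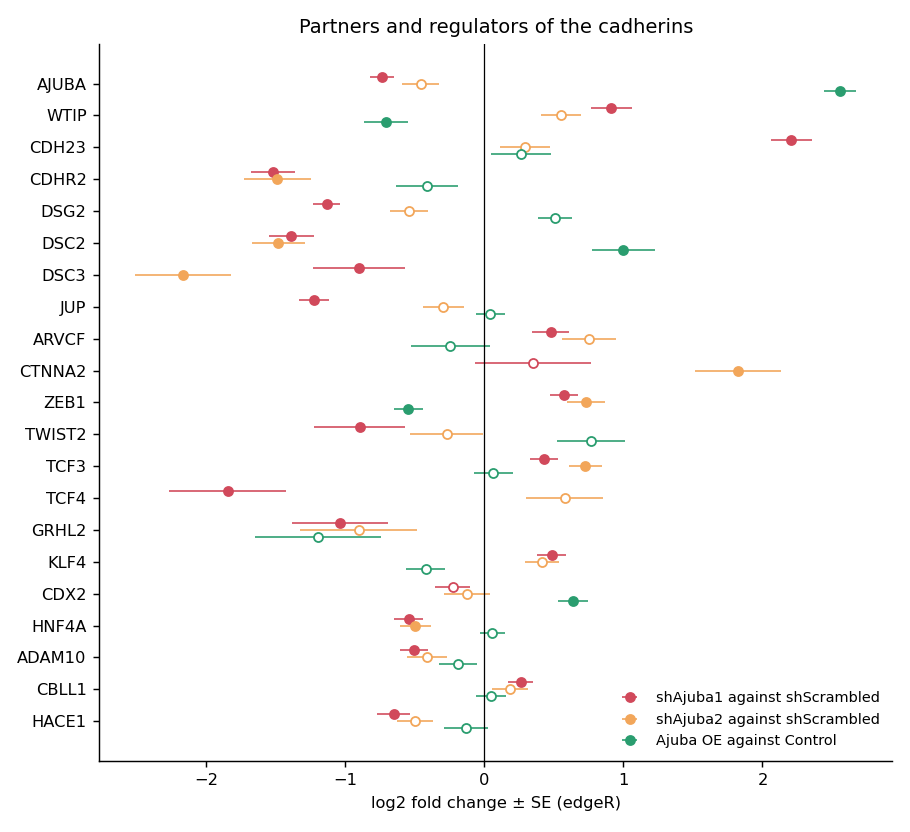
Log2 fold change ± SE from edgeR for 21 partners and regulators of the cadherins in the 3 comparisons with the matched control, with filled points where the adjusted p was under 0.05. ZEB1 lies above 0 in both KD lines and below 0 in Ajuba OE, DSC2 the other way round, and JUP and CDH23 stand apart in shAjuba1.

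The genes whose pattern over the 16 samples was most like a member were ranked by Pearson's r of normalized log2 expression among 14965 protein-coding genes. For CDH11 they were KCND3, a potassium channel (r = 0.99), TMEM52B (r = 0.98) and AMOTL1, an angiomotin relative (r = 0.98). KCND3 was at 16.5 ± 0.753 RPM in shAjuba1 and 1.22 ± 0.0885 in Ajuba OE (SD, n = 3 each). AMOTL1 was at 127.5 ± 3.42 RPM in shAjuba2, above its 96.0 ± 3.29 in shAjuba1 and thus unlike CDH11 in that step, and at 1.37 ± 0.47 RPM in Ajuba OE (SD, n = 3 each). For CDH1 they were RAB11FIP4 (r = 0.99), ABHD12B (r = 0.98) and SUSD4 (r = 0.97), and for CDH3 SEL1L3 (r = 0.99), ADGRG2 (r = 0.97) and GPSM2 (r = 0.97). For CDH4 they were TET3, TMC6 and SH3BP5L (r = 0.95 to 0.98), for CDH13 GRAMD1C, SLC2A12 and CLDN1 (r = 0.93 to 0.94) and for CDH17 SH3PXD2B, APBB1 and EHD2 (r = 0.96 to 0.97). The samples of a line share their origin, so these values describe likeness over 6 lines more than over 16 independent samples.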

How the data were processed

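RNA was sequenced from 16 samples of 6 SW480 lines (stranded mRNA libraries, paired reads). Raw counts of read pairs per gene were deposited by the authors without normalization. Per the labels HISAT2 and featureCounts made them on GRCh38, and their versions are not given in the sources used here. Symbols, exons and positions came from GENCODE 44, in which 56434 of the 66023 genes, with 99.8% of the counts, were found by identifier.

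RPM is the count per 1000000 counts of the sample. Lines were compared on the samples of the 2 lines with edgeR 4.0.16 in R 4.3.3 (limma 3.58.1): filterByExpr by line, TMM, the quasi-likelihood test (two-sided) and Benjamini-Hochberg adjustment over all genes. The SE was had from the log2 fold change and the square root of its F statistic. The scripts were tested on simulated data. Alternatives were library size alone, DESeq2's size factors, DESeq2 1.42.0 (the study's tool), all 16 samples, other filters, a replicate block, Parental as the control, and leaving out samples. Figures were drawn in matplotlib 3.10.9 (Python 3.11.15, with pandas 2.3.3).

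The members, lists and tests were chosen with earlier results of these data known. Named genes were the members, AJUBA, up to 3 called genes per list with the largest change, list genes over 1 RPM where a list was counted, and 3 genes most like each member. Promoter windows are from RefSeq (GRCh38.p14). Only 2 members had an entry. No set test was run. A gene of the list of activators is not reported here. Replicates of a line differed by more than counting noise, so none was taken for the same library entered again. This does not show that the replicates are independent, and the study speaks of technical replicates.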

Additional observations from a re-analysis of the deposited data

Results flagged for a closer look

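CDH1 differed between the KD lines by the test of the difference itself, with a log2 fold change of 1.43 in shAjuba1 against shAjuba2 (SE 0.201, adjusted p = 0.00124 by the quasi-likelihood test of edgeR, higher in 3 of 3 samples). The value was between 1.27 and 1.69 when each sample was left out in turn, and it stayed past the threshold under all 13 alternatives. Groups of 2 or 3 samples are too small to look for single samples that stand apart in one gene.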

How the results depend on the processing

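Over the log2 fold changes of the members, 407 alternative values kept their direction and side of the threshold, 22 passed it in addition, 19 lost it, 9 turned and 4 (CDH11, described without a test) moved by more than 1 SE. The turned values against Parental were CDH1 (-0.79), CDH13 (0.10) and CDH17 (0.29) in shAjuba1, and CDH13 (0.51) and CDH17 (0.026) in shAjuba2. The others were close to 0, with CDH13 in Ajuba OE (-0.13 to 1.67e-04 on leaving out each sample), CDH4 in shAjuba1 against shAjuba2 (-0.24 to 0.15) and CDH4 in shScrambled against Parental (-0.049 to 0.13). Among list genes, DSC3 (0.19), CTNNA2 (-0.67) and CBLL1 (-0.047) turned against Parental in shAjuba1, TWIST2 (0.45) and CBLL1 (-0.12) in shAjuba2, and HNF4A (-0.28), JUP (-0.22) and CBLL1 (-0.042) in Ajuba OE. JUP (-0.018), CBLL1 (-0.013) and HNF4A (-0.0045) also turned there with library size alone. On leaving out each sample JUP ran from -0.0093 to 0.14, HACE1 from -0.22 to 0.056, ARVCF from -0.55 to 0.025 and CBLL1 from -0.024 to 0.11 in Ajuba OE. The cause was not tested.

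For the counts of members and of all genes that follow, an alternative is named where it differed from the main count by more than 1.5 times. Smaller shifts, such as 3 members in place of 4, are not named, and leaving out samples is given as a range. The number of members past the threshold in shAjuba1 against shScrambled was 4, and 2 with DESeq2. In shAjuba2 it was 1, 0 with library size alone, 3 with all 16 samples, 3 with every gene of at least 1 count, 3 with the replicate block and 2 against Parental. Between the KD lines it was 1, 2 with library size alone, DESeq2, every gene or at least 10 counts in every sample, and 3 with all 16 samples. Between Control and Parental it was 0, and 1 with all 16 samples or every gene. In Ajuba OE it was 2. Leaving out each sample in turn gave 2 to 4 in shAjuba1, 0 to 2 in shAjuba2, 1 to 2 in Ajuba OE, 1 to 3 between the KD lines and 0 to 1 between Control and Parental. It was 3 throughout between shScrambled and Parental.

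The number of all genes past the threshold was 8103 in shAjuba1 (4711 to 9695 on leaving out each sample). In shAjuba2 it was 1713 (3672 with all 16 samples, 3210 with every gene, 5377 with the replicate block, 182 to 4983 on leaving out each sample). In Ajuba OE it was 1147 (2386 with all 16 samples, 5140 with the block, 412 to 988 on leaving out each sample). Between the KD lines it was 4232 (2177 to 5961 on leaving out each sample). Between shScrambled and Parental it was 6526 (1696 with all 16 samples, 3010 to 5369 on leaving out each sample). Between Control and Parental it was 80 (469 with DESeq2, 530 with all 16 samples, 1947 with every gene, 26 with at least 10 counts, 318 with the block, 14 to 985 on leaving out each sample). The deviations of same-numbered samples from their line means had correlations of -0.172 to 0.618, and the main test did not take replicate numbers as pairs. The highest value, 0.618, was that of replicate 2 in Ajuba OE against Control, where the deviations were thus partly shared. For replicate 2 in shAjuba2 against shScrambled the correlation was 0.214. With the block, CDH1 (adjusted p = 0.0441) and CDH4 (adjusted p = 0.0227) passed in shAjuba2. Of the 3 genes most like a member, 0 to 2 were kept over the 6 line means and 3 with at least 10 counts in every sample, where CDH17 could not be ranked. Depth limits CDH2, CDH6 and the CDH17 counts of Ajuba OE.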
